A study of Mus musculus with 10 samples.

Results

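The somatic ovary cell markers examined here are 37 genes whose transcripts mark cells of the fetal ovary other than germ cells. They comprise 16 markers of pregranulosa cells, 10 of stromal cells, 2 of endothelial cells, 4 of macrophages and 5 of surface and epithelial cells, out of 55536 genes in the deposited count table. Members were chosen by gene name and matched by gene ID, a rule that uses no measured value. The list of names was, however, drawn up with earlier results of these data known. RNA was sequenced from fluorescence-sorted oocytes of female C57BL/6 mouse embryos at E16.5, in 5 Taf4b-heterozygous and 5 Taf4b-deficient libraries of whole sorted populations. Both genotypes came from matings of mice homozygous for the Oct4-EGFP transgene and heterozygous for the Taf4b-deficiency mutation, so the heterozygous group also carries 1 mutant allele and no wild-type group was analysed here. EGFP marks cells in which Pou5f1 (Oct4) is active. Live GFP-positive cells were separated after trypsin digestion of the gonads, against a gate set on a non-transgenic gonad. TAF4b belongs to TFIID, the general transcription factor that recognises core promoters, and is most abundant in gonads.

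In the fetal mouse ovary, pregranulosa cells surround the oocytes and later form the granulosa layer of the follicle. FOXL2 and the RSPO1 and WNT4 signalling pathway maintain their female identity, and KIT ligand from these cells acts on the KIT receptor of the germ cells. Stromal cells lie between the oocyte nests and make fibrillar collagen, while endothelial cells, macrophages and the mesothelial surface layer complete the tissue. A sort for germ cells is meant to leave all of these behind. Whether a marker's reads came from somatic cells or from the oocytes themselves cannot be told apart in these libraries, and it was not tested.

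Total counts ran from 16707216 to 26983565 per library. The germ cell genes were abundant. TPM, a relative transcript level corrected for gene length, was computed from the counts and had medians of 1937 for Sycp3, 1324 for Dazl and 593 for Ddx4. Pou5f1 itself, whose regulatory sequence drives the sorting marker, had a median of only 0.358 TPM. Taf4b was at 271, 290, 142, 65.7 and 101 CPM (counts scaled to a common library size) in heterozygous libraries 1 to 5 and at 58.2 to 81.7 CPM in deficient libraries, so the library labelled heterozygous 4 lay inside the deficient range. The labels do not say that libraries came from separate embryos, and p-values therefore measure the spread between libraries, which may be technical.

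Markers of all 5 somatic types were detected at low level. Between 0.0253% and 0.0551% of a library's counts fell on the 37 members together, and their summed level ran from 295.6 to 500.8 CPM, against 4915 to 7631 CPM for 8 germ cell genes. All 37 passed the filter on low counts and were tested. Lum, a small proteoglycan of collagen matrix, had 0 counts in heterozygous 2 and deficient 1, and Pdgfrb, the pericyte receptor for platelet-derived growth factor, had 0 counts in deficient 2. A count of 0 allows up to 0.139, 0.139 and 0.184 CPM in these 3 libraries (3 counts per library), from counting error alone. In such bulk samples, fewer cells of a type and less RNA per cell cannot be told apart.

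Ordered by median TPM computed from the counts, the macrophage markers Lyz2, C1qc and Cd68 and the surface markers Epcam and Aldh1a2 led. Lyz2, the macrophage lysozyme, stood first at 159 TPM, with a range over the 10 libraries of 80.4 to 267. Epcam, an epithelial adhesion molecule that germ cells also carry, followed at 82.9 TPM, and its range of 33.1 to 106 overlapped that of Lyz2. C1qc, a chain of complement C1q, was at 51.4 TPM, Cd68, a lysosomal glycoprotein, at 38.0 TPM, and Csf1r, the receptor for colony-stimulating factor 1, at 17.3 TPM. Aldh1a2, which makes retinoic acid, was at 30.0 TPM, Plvap, a component of endothelial fenestrae, at 14.6 TPM and Krt18, a simple-epithelial keratin, at 13.4 TPM. The surface and epithelial keratins Krt8 and Krt19 were lower, at 5.64 and 2.92 TPM. Neighbours in this order overlapped in range. Among pregranulosa markers the highest was Amhr2, the receptor for anti-Müllerian hormone, at 22.1 TPM, and the lowest was Lgr5, a receptor for R-spondins, at 0.809 TPM. The length used for Lgr5 was all its annotated exon bases, 10264, against 4793 in its longest transcript. A shorter length would raise its TPM and could change its place. Stromal markers ran from 5.24 TPM for Col3a1 (collagen III) to 0.273 TPM for Pdgfrb.

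The deposited TPM departed most from the TPM computed from counts for 4 members. Some other members also changed places, such as Cd68, which was above C1qc in deposited TPM (25.0 against 21.4). Across 18953 genes with a median of at least 10 counts, deposited TPM was a median of 0.427 times the TPM computed from counts, and its 95th percentile was 5.38 times. Pdgfra, the receptor for platelet-derived growth factor on stromal cells, had a median of 25 counts per library, which gave 0.332 TPM, yet its deposited median was 159.7 TPM, 481 times as high and at the 99.98th percentile of all genes compared. Lgr5 was 40.7 times as high in the deposited TPM (32.9 against 0.809), Runx1, a transcription factor of pregranulosa and blood cells, 7.54 times (10.4 against 1.38) and Col1a2, a collagen I chain, 7.01 times (7.33 against 1.05). By the deposited TPM, Pdgfra would be the most abundant of the 37 members. By the counts it was the second lowest. Deposited TPM of Pdgfra ranged from 14.9 in heterozygous 3 to 239 in heterozygous 5. Counts were used for every comparison between genotypes, and the cause of the discrepancy was not tested.

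**Figure D1:**
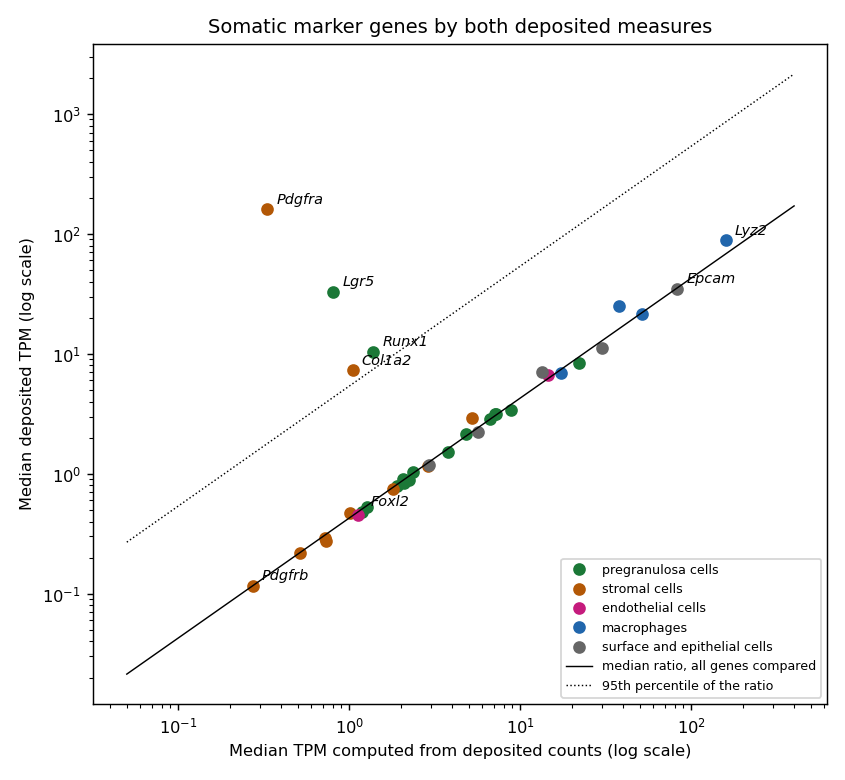
Median TPM of each of the 37 members over 10 libraries, with the TPM computed from the deposited counts on the x axis and the deposited TPM on the y axis, both on log scales and coloured by cell type. The solid line is the median ratio of all genes compared (0.427) and the dotted line its 95th percentile (5.38), and Pdgfra, Lgr5, Runx1 and Col1a2 lie above the dotted line.

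Promoter sequence from RefSeq (GRCm38.p6) was matched by symbol for 22 of the 37 members. For each type, the window of 250 bases upstream of the annotated start is shown for its most highly expressed member whose window holds no annotated exon. They stand for the types whose levels are compared here, and neither endothelial marker was among the 22 matched members. The Amhr2 window is chr15:102445117-102445366, plus strand. The Col3a1 window is chr1:45311288-45311537, plus strand. The Cd68 window is chr11:69666171-69666420, minus strand. The Epcam window is chr17:87635729-87635978, plus strand. Capitals mark matches on either strand. The letters searched were those of the TATA box, TATAAA. Those of the GC box were GGGCGG. The third motif was CCAAT, and the core that ETS factors bind was searched as AGGAAG.
Amhr2: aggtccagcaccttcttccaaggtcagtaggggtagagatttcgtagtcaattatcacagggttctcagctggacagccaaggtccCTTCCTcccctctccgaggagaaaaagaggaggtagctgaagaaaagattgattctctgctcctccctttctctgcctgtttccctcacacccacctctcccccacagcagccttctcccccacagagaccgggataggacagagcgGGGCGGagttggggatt
Col3a1: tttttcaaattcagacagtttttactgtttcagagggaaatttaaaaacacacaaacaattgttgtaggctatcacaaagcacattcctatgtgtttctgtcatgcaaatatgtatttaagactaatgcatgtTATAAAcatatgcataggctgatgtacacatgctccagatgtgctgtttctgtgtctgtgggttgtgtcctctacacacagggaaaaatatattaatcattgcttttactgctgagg
Cd68: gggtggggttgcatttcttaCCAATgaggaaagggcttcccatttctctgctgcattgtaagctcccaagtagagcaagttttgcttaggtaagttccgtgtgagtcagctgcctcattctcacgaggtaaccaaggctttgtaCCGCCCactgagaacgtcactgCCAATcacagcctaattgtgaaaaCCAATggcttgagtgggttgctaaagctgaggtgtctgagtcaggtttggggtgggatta
Epcam: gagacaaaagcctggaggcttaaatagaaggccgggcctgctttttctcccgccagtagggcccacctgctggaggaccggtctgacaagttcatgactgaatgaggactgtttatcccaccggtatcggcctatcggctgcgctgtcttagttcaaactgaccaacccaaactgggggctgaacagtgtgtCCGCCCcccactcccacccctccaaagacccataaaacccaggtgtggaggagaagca
The 4 windows differed in content. Col3a1 alone of them held TATAAA, 117 bases before the start. Cd68 held CCAAT 3 times, at 230, 84 and 60 bases before the start, and a GC box at 106 bases. Amhr2 held a GC box 17 bases and an ETS core 164 bases before the start, and Epcam a GC box at 58 bases. Over 32851 promoters of the same length, 12.4% held TATAAA, 32.7% the GC box, 33.8% CCAAT and 29.5% the ETS core, while of the 22 matched members 3, 10, 5 and 7 did so in at least 1 window. A match describes the letters and shows no binding.

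Between genotypes, no member was called by edgeR's quasi-likelihood test with Benjamini-Hochberg adjustment over all 19244 genes tested (0 of 37, and 0% of all genes). The smallest adjusted p of a member was 0.215, for Fst. At an unadjusted p under 0.05 there were 3 members, Wnt4, Fst and Col1a2, all with higher means in deficient libraries, against 3190 of all genes (16.6%). DESeq2 called 643 genes (3.02%) and limma voom with quality weights on the libraries 510 (2.65%), in both cases with 0 members. With the library labelled heterozygous 4 left out, edgeR again called 0 members and 0 of all 19643 genes tested. Genotypes overlapped for all 37 members, while 3.53% of all genes showed no overlap. Of the log2 fold changes (deficient over heterozygous), 21 were above and 16 below 0, with a median of 0.12 against −0.02 over all genes tested. By type, the median log2 fold change was 0.26 for pregranulosa, 0.31 for stromal, 0.44 for endothelial, −0.45 for macrophage and −0.39 for surface and epithelial markers. The members' values ran from −0.84 to 1.35 for pregranulosa, −0.61 to 1.12 for stromal and −0.56 to 0.29 for surface and epithelial markers. These ranges overlapped each other and those of the remaining types. Endothelial (0.12 and 0.75) and macrophage markers (−0.52 to −0.14) did not overlap each other. Differences between types were not tested.

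The authors' deposited table, in contrast, called 7 of the 34 members for which it gives an adjusted p, against 6.55% of its 17881 genes. In the authors' deposited table Foxl2, Fst, Col1a2 and Cdh5 were higher in deficient libraries (4 members, against 3.2% of all genes called higher) and C1qc, Cd68 and Csf1r were lower (3 members, against 3.36% called lower). A DESeq2 refit with genotype and a 3-level grouping of libraries differed from each of the 31181 deposited log2 fold changes by at most 0.00555 and called the same 7 members. Level 1 held heterozygous 1 and deficient 1 and 2, level 2 held heterozygous 2 and 3 and deficient 3 and 4, and level 3 held the library labelled heterozygous 4, heterozygous 5 and deficient 5. These levels are not the litter dates of the labels. In edgeR with that grouping, 104 genes were called (0.54%) and 0 members, with adjusted p from 0.058 for Col1a2 to 0.148 for Foxl2 among the 7. In the refit by DESeq2, leaving out 1 library left between 1 and 9 members called. Over all genes, between 169 and 1699 were then called. Of the members, Col1a2 alone was called without the library labelled heterozygous 4, where 489 of all genes were called. Cdh5 alone was called without deficient 5 (169 of all genes), and Col1a2, C1qc and Csf1r without deficient 3 (740 of all genes). Every one of the 7 kept its sign in these 10 refits.

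**Figure D2:**
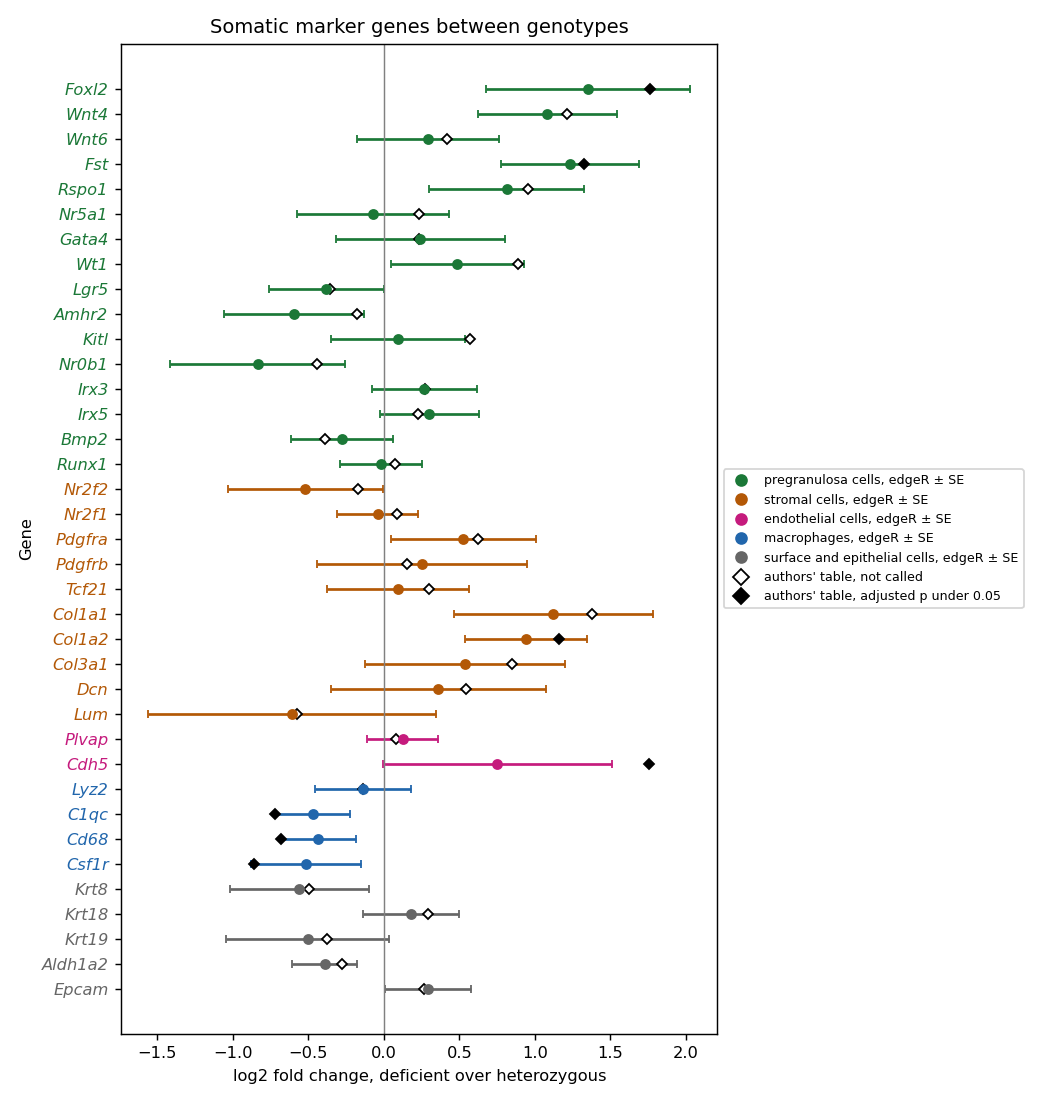
Log2 fold change of deficient over heterozygous for each of the 37 members, with circles for edgeR (bars, SE; n = 5 libraries per genotype; coloured by cell type) and diamonds for the authors' deposited table. Filled diamonds mark the 7 members with an adjusted p under 0.05 in that table, while no edgeR value passed.

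Among pregranulosa markers, 10 of 16 had a positive log2 fold change. Foxl2 (ENSMUSG00000050397, chr9:98955288-98958543, GRCm38), the forkhead factor of granulosa identity, was at 0.719, 0.883, 0.0432, 2.18 and 1.56 CPM in heterozygous libraries 1 to 5 and at 1.16, 1.29, 5.91, 1.62 and 3.74 CPM in deficient libraries 1 to 5. Deficient 3 and 5 exceeded every heterozygous library, and heterozygous 3 had a single count. The log2 fold change was 1.35 ± 0.68 (SE, adjusted p = 0.330) by edgeR, and in the authors' deposited table it was 1.76 with an adjusted p of 0.0375. Foxl2 shares 12 exon bases with Foxl2os on the opposite strand, whose median was 88.5 counts, and the strand setting of the counting is not given in the sources used here.

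Wnt4, a secreted ligand needed for ovarian differentiation, was at 2.06, 0.744, 0.216, 0.993 and 1.6 CPM across heterozygous libraries and 1.86, 2.82, 2.61, 2.12 and 2.51 CPM in deficient libraries. In 4 of 5 deficient libraries it exceeded every heterozygous one, and the deficient values were close together (2.38 ± 0.388 CPM, SD, n = 5, against 1.12 ± 0.723). Its log2 fold change was 1.08 ± 0.46 (SE, adjusted p = 0.264), and in the authors' deposited table the adjusted p was 0.0735. Fst (chr13:114452290-114458951), which encodes the activin antagonist follistatin, was at 6.32, 1.49, 1.25, 2.18 and 3.34 CPM and 7.15, 3.62, 11.7, 4.51 and 7.21 CPM, in the same order. Deficient 1, 3 and 5 exceeded every heterozygous library. Its log2 fold change was 1.23 ± 0.46 (SE, adjusted p = 0.215) by edgeR and 1.33 with an adjusted p of 0.0401 in the authors' deposited table. Without heterozygous 1, where Fst was highest among heterozygous libraries, edgeR gave an adjusted p of 0.045, and Fst was then the only member called (1 of 37, against 3.07% of all genes).

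Rspo1, the R-spondin that strengthens WNT signalling, was at 6.85, 3.11, 0.519, 4.35 and 4.90 CPM across heterozygous libraries and 5.11, 3.93, 11.9, 4.78 and 8.93 CPM in deficient libraries, with a log2 fold change of 0.81 ± 0.51 (SE, adjusted p = 0.435). Lgr5, which binds R-spondins, was at 3.35, 3.25, 2.33, 3.31 and 3.62 CPM and 2.79, 0.613, 3.77, 2.35 and 2.59 CPM, and its log2 fold change was −0.38 ± 0.38 (SE, adjusted p = 0.637). The ligand and its receptor thus had fold changes of opposite sign, neither beyond the spread between libraries. Wnt6, another WNT ligand, ranged from 2.27 CPM in deficient 2 to 18.6 CPM in deficient 3 (log2 fold change 0.29), wider within deficient libraries than between genotype means of 7.89 and 9.62 CPM. Bmp2, a bone morphogenetic protein made by pregranulosa cells, ranged from 3.55 to 12.6 CPM with both extremes among heterozygous libraries (log2 fold change −0.28).

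Amhr2 was at 8.0, 14.7, 15.0, 37.7 and 27.0 CPM across heterozygous libraries and 10.4, 4.78, 22.0, 8.30 and 22.4 CPM in deficient libraries, with a log2 fold change of −0.59 ± 0.46 (SE, adjusted p = 0.538). Its highest value was in the library labelled heterozygous 4 at 37.7 CPM, and without that library the log2 fold change was −0.25. Kitl, the ligand of KIT, was at 9.53, 8.79, 10.2, 31.2 and 30.5 CPM and 17.3, 9.20, 28.4, 11.6 and 29.6 CPM, a log2 fold change of 0.09 ± 0.44 (SE, adjusted p = 0.939). The ranges of both genotypes nearly coincided, from 8.79 to 31.2 CPM and from 9.20 to 29.6 CPM. Kitl made up the greatest part of the summed pregranulosa level, at 18.5%. Runx1 had the smallest ratio of highest to lowest library among the pregranulosa transcription factors (1.71), at 3.98, 6.55, 3.89, 6.62 and 6.00 CPM and 5.71, 4.11, 6.65, 3.93 and 6.24 CPM, with a log2 fold change of −0.02 ± 0.27 (SE, adjusted p = 0.978) whose sign turned when any of 5 single libraries was left out, to at most 0.07.

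By SD, the other gonadal transcription factors varied more among heterozygous libraries than between genotype means. Among deficient libraries this also held, except for Nr0b1 and Irx5. Gata4, a zinc-finger activator of the somatic gonad, was at 6.28, 13.5, 4.58, 11.7 and 14.1 CPM across heterozygous libraries and 3.95, 3.01, 30.4, 7.22 and 14.6 CPM in deficient libraries, giving a log2 fold change of 0.24 ± 0.56 (SE, adjusted p = 0.858). Deficient 3 alone was above 15 CPM. Nr5a1 (steroidogenic factor 1) was highest in the same library at 8.70 CPM and lowest in deficient 4 at 1.26 CPM, with a log2 fold change of −0.07. Wt1, the Wilms tumour factor, ran from 1.43 CPM in heterozygous 3 to 7.61 CPM in deficient 5 (log2 fold change 0.49). Nr0b1 (DAX1) had the lowest log2 fold change of all members, −0.84 ± 0.58 (SE, adjusted p = 0.479), with means of 2.04 ± 1.33 CPM across heterozygous libraries and 1.13 ± 0.693 CPM in deficient libraries (SD, n = 5). Irx3 and Irx5, neighbouring homeobox genes that act in pregranulosa cells of the mouse, had log2 fold changes of 0.27 and 0.30. Irx5 was within 2.39 to 2.74 CPM in every deficient library and spread from 1.24 to 3.26 CPM in heterozygous ones.

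Among stromal markers, 7 of 10 had a positive log2 fold change, and the collagens were highest in deficient 3 and deficient 5. Col1a2 (chr6:4504814-4541544) was at 2.01, 2.88, 4.41, 6.39 and 4.08 CPM across heterozygous libraries and 4.88, 3.50, 9.82, 5.87 and 13.8 CPM in deficient libraries. These 2 deficient libraries exceeded every heterozygous one and the other 3 lay inside the heterozygous range. The log2 fold change was 0.94 ± 0.40 (SE, adjusted p = 0.271) by edgeR, and 1.16 with an adjusted p of 0.00282 in the authors' deposited table. Col1a1, the other chain of collagen I, was at 0.623, 0.232, 1.25, 2.98 and 0.824 CPM and 1.16, 0.491, 3.16, 2.62 and 5.41 CPM, with a log2 fold change of 1.12 ± 0.66 (SE, adjusted p = 0.404). Col3a1 (chr1:45311538-45349706), 53.1% of the summed stromal level, was at 6.99, 31.2, 5.97, 44.0 and 22.9 CPM and 10.6, 9.08, 82.2, 14.4 and 45.03 CPM, with a log2 fold change of 0.54 ± 0.66 (SE, adjusted p = 0.709). Its highest library, deficient 3, set the sign, which turned to −0.16 without that library.

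The other stromal markers had log2 fold changes from −0.61 to 0.53. Pdgfra was at 1.15, 1.07, 0.130, 0.993 and 1.6 CPM across heterozygous libraries and 1.67, 0.981, 1.91, 1.40 and 1.14 CPM in deficient libraries, with a log2 fold change of 0.53 ± 0.48 (SE, adjusted p = 0.606). This rested on 3 to 41 counts per library. Pdgfrb, Tcf21 (a factor of mesenchymal progenitors) and Lum reached at most 1.26, 1.37 and 1.92 CPM. Nr2f2, the nuclear receptor COUP-TFII of stromal and steroidogenic precursors, ran from 1.04 to 8.79 CPM with both extremes among heterozygous libraries (log2 fold change −0.52). Its relative Nr2f1 ran from 3.31 to 7.48 CPM (log2 fold change −0.04). Dcn, which encodes the matrix proteoglycan decorin, ran from 0.55 CPM in deficient 2 to 13.1 CPM in deficient 5, which exceeded every other library (log2 fold change 0.36).

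The 2 endothelial markers differed in their steadiness. Plvap was at 9.44, 10.4, 13.8, 9.18 and 10.1 CPM across heterozygous libraries and 15.9, 9.75, 8.19, 10.8 and 13.1 CPM in deficient libraries, with a log2 fold change of 0.12 ± 0.23 (SE, adjusted p = 0.822). Without deficient 1, its highest library, that value was −0.02. Cdh5 (chr8:104101625-104144511), the adherens junction cadherin of endothelium, was at 0.767, 0.279, 0.303, 2.74 and 5.22 CPM and 6.97, 1.35, 2.09, 1.08 and 4.13 CPM. Deficient 1 alone exceeded every heterozygous library. Its log2 fold change was 0.75 ± 0.76 (SE, adjusted p = 0.642) by edgeR, and 1.76 with an adjusted p of 0.019 in the authors' deposited table. The edgeR value was 0.22 without deficient 1 and 1.6 without heterozygous 5. Plvap made up 81.6% of the summed endothelial level, which was 12.5 ± 2.21 CPM across heterozygous libraries and 14.7 ± 5.34 CPM in deficient libraries.

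All 4 macrophage markers had negative log2 fold changes, and all 4 were lowest in deficient 5. C1qc (chr4:136889804-136893065) was at 44.9, 34.7, 42.6, 36.4 and 30.0 CPM across heterozygous libraries and 36.7, 35.1, 22.7, 27.2 and 14.6 CPM in deficient libraries. Deficient 3, 4 and 5 lay below every heterozygous library and deficient 1 and 2 lay within their range. The log2 fold change was −0.47 ± 0.24 (SE, adjusted p = 0.349) by edgeR, and −0.72 with an adjusted p of 0.0119 in the authors' deposited table. Cd68 (chr11:69664213-69666153) was at 20.8, 17.2, 17.3, 16.1 and 14.8 CPM and 17.4, 17.8, 8.84, 11.3 and 8.27 CPM, so the same 3 deficient libraries were below every heterozygous one. Its log2 fold change was −0.44 ± 0.25 (SE, adjusted p = 0.395), and −0.68 with an adjusted p of 0.0162 in the authors' deposited table.

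Csf1r (chr18:61100598-61132149) was at 50.4, 54.7, 36.1, 31.8 and 17.3 CPM across heterozygous libraries and 36.2, 27.2, 35.5, 25.3 and 8.88 CPM in deficient libraries. In each genotype replicate 5 was lowest, and only deficient 5 lay below the heterozygous range. The log2 fold change was −0.52 ± 0.37 (SE, adjusted p = 0.490) by edgeR, and −0.86 with an adjusted p of 0.0194 in the authors' deposited table. Csf1r shares 873 exon bases with Hmgxb3 on the opposite strand, a gene with a median of 563.5 counts, so part of its reads is uncertain. Lyz2 was at 58.2, 62.6, 44.6, 72.0 and 123 CPM and 79.6, 87.7, 39.3, 83.8 and 37.2 CPM. Deficient 3 and 5 lay below every heterozygous library, heterozygous 5 stood highest, and the log2 fold change was −0.14 ± 0.32 (SE, adjusted p = 0.854). It turned to 0.14 without heterozygous 5. Lyz2 took 46.3% of the summed macrophage level.

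Among surface and epithelial markers, 2 of 5 had a positive log2 fold change. Aldh1a2 was at 19.4, 30.2, 24.3, 35.1 and 31.1 CPM across heterozygous libraries and 21.1, 14.6, 24.4, 21.03 and 25.3 CPM in deficient libraries, with a log2 fold change of −0.39 ± 0.22 (SE, adjusted p = 0.375). Only deficient 2 was below the heterozygous range. Epcam was at 89.4, 56.2, 26.3, 37.1 and 69.6 CPM and 74.8, 58.0, 60.0, 82.9 and 65.0 CPM, with a log2 fold change of 0.29 ± 0.29 (SE, adjusted p = 0.633). All deficient values of Epcam lay inside the heterozygous range. Epcam made up 61.3% of the type's summed level, so that sum mainly follows Epcam.

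Keratins 8 and 18 pair to form the filaments of simple epithelia, and their genes had fold changes of opposite sign. Krt8 was at 3.93, 6.32, 2.85, 6.39 and 6.00 CPM across heterozygous libraries and 2.18, 0.859, 4.23, 2.62 and 7.30 CPM in deficient libraries, with a log2 fold change of −0.56 ± 0.46 (SE, adjusted p = 0.560). Krt18 was at 8.19, 4.69, 3.50, 10.2 and 6.55 CPM and 6.97, 4.85, 6.47, 9.48 and 9.67 CPM, with a log2 fold change of 0.18 ± 0.32 (SE, adjusted p = 0.808). Neither difference was beyond the spread between libraries. Krt19, a keratin of the ovarian surface layer, ran from 0.80 CPM in deficient 2 to 6.60 CPM in deficient 5, with a log2 fold change of −0.51.

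**Figure D3:**
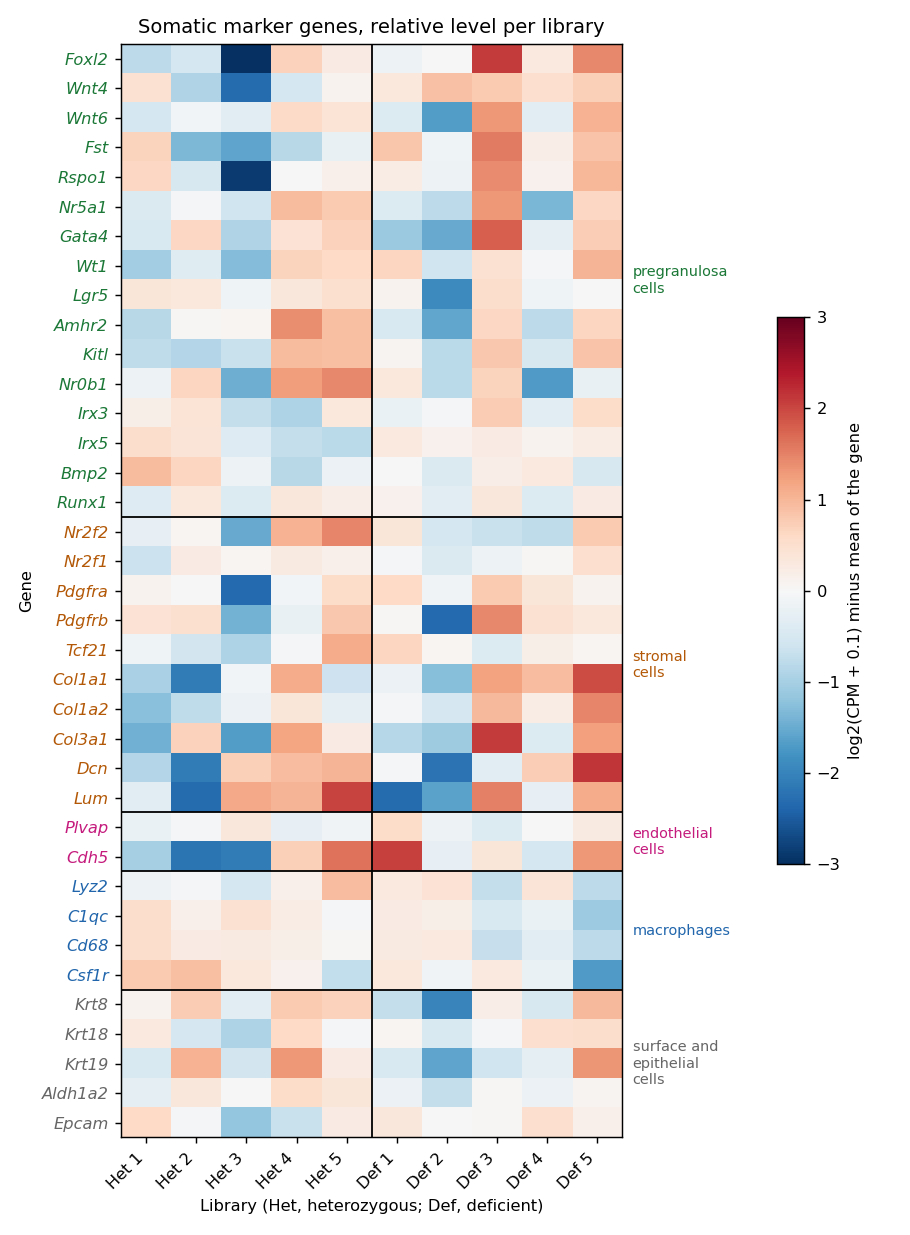
Each of the 37 members (rows, grouped by cell type) in each of the 10 libraries (columns, Het for heterozygous and Def for deficient), as log2(CPM + 0.1) minus the gene's mean over libraries. Deficient 3 holds the highest value of 12 members and heterozygous 3 the lowest of 12, and the 4 macrophage markers are lowest in deficient 5.

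The library with the highest value differed between members and types. Deficient 3 had the highest value for 9 of 16 pregranulosa and 3 of 10 stromal markers, 12 of 37 in all. Deficient 5 had the highest value for 4 stromal, 2 surface and epithelial and 1 pregranulosa marker and the lowest for all 4 macrophage markers. Heterozygous 3 had the lowest value for 12 members, 6 of them pregranulosa and 4 stromal, and the highest for 0. Deficient 2 was lowest for 9 members, and both endothelial markers peaked in deficient 1. Heterozygous libraries held the highest value for 15 members, among them heterozygous 5 for 3 of 10 stromal, heterozygous 1 for 2 of 4 macrophage and the library labelled heterozygous 4 for 2 of 5 surface and epithelial markers.

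Summed pregranulosa level was 77.8, 86.3, 57.8, 134 and 129 CPM in heterozygous libraries 1 to 5 and 83.4, 51.5, 174, 70.8 and 140 CPM in deficient libraries 1 to 5. The means were 97.1 ± 33.3 and 104 ± 51.3 CPM (SD, n = 5), a log2 ratio of 0.10, which turned to −0.16 without deficient 3. Summed stromal level was 19.6, 46.4, 24.4, 74.6 and 54.1 CPM and 31.6, 21.2, 109, 37.9 and 93.6 CPM, a log2 ratio of 0.42 on means of 43.9 ± 22.5 and 58.7 ± 39.7 CPM. Without deficient 3 the stromal ratio was 0.0765, without deficient 5 it was 0.17, and it stood at 0.70 with the library labelled heterozygous 4 left out. Both sums varied more within each genotype than between them, and both were high in the library labelled heterozygous 4, heterozygous 5, deficient 3 and deficient 5. Summed macrophage level was 174, 169, 141, 156 and 186 CPM across heterozygous libraries and 170, 168, 106, 148 and 68.9 CPM in deficient libraries. Deficient 3 and 5, high for pregranulosa and stromal markers, were the 2 libraries below the heterozygous range for macrophages. The macrophage means were 165 ± 17.3 and 132 ± 43.6 CPM, a log2 ratio of −0.32, and summed surface and epithelial means were 99.2 ± 25.1 and 103 ± 15.6 CPM, a log2 ratio of 0.05. The sum over all members was 418 ± 79.0 CPM across heterozygous libraries and 412 ± 61.0 CPM in deficient libraries (log2 ratio −0.02).

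**Figure D4:**
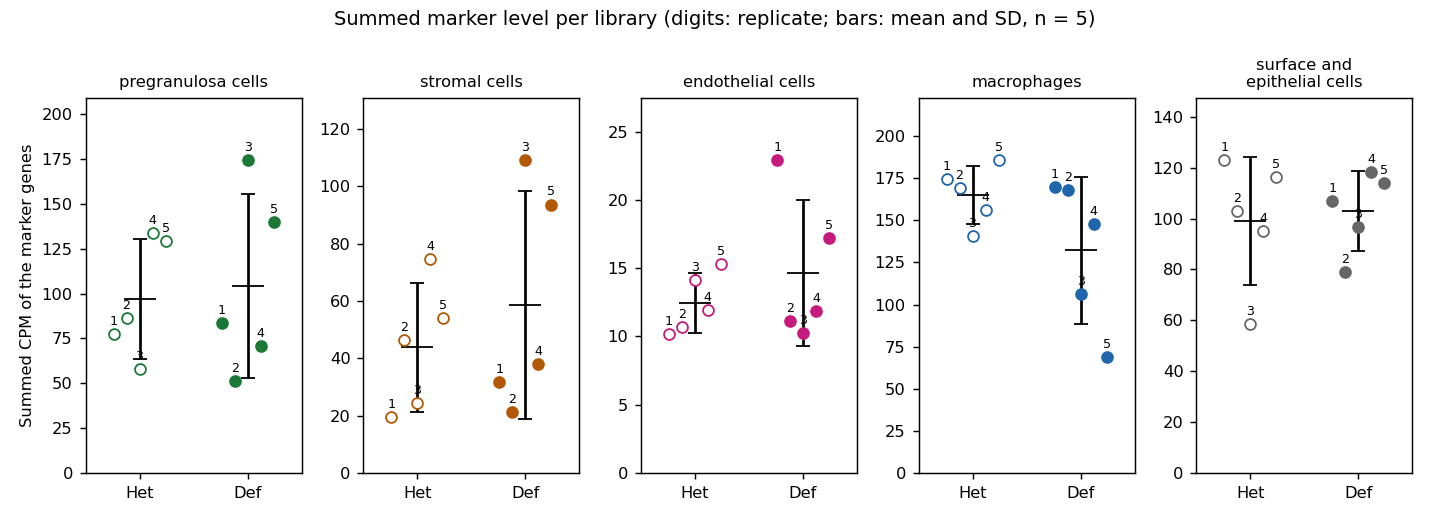
Summed CPM of the members of each cell type (y axis, from 0, on a scale of its own per panel) by genotype. Points are libraries labelled with the replicate number, open for heterozygous and filled for deficient, and bars are the mean and SD (n = 5); genotypes overlap in every panel.

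Within the 3 litter dates of the labels and the 3 levels of the authors' grouping, the macrophage sum was the only type sum that was lower in deficient libraries each time. The log2 ratio of summed macrophage level was −0.02 and −0.11 for the first and second date and −0.78 for the third, and within levels 1 to 3 it was −0.05, −0.29 and −1.31. The third date and level 3 each include deficient 5. Pregranulosa ratios were 0.02, 0.23 and −0.29 by date and −0.21, 0.77 and 0.09 by level, with no common sign. Stromal ratios were −0.06, 0.39 and 0.28 by date and 0.43, 1.05 and 0.54 by level, so they were positive in every level. Endothelial ratios were 1.13, −0.28 and −0.08 by date and 0.74, −0.16 and 0.33 by level, and surface and epithelial ratios were −0.08, 0.19 and −0.0037 by date and −0.40, 0.41 and 0.11 by level. Each date or level holds 1 or 2 libraries of a genotype, so these ratios have no test.

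Other genes moved between the same libraries. Hba-a1, a haemoglobin chain of red cells, was at 24.0, 38.4, 102, 260 and 798 CPM across heterozygous libraries and 36.1, 91.4, 50.2, 61.1 and 590 CPM in deficient libraries, highest in replicate 5 of both genotypes. Stra8, which is switched on at meiotic entry, was lowest within its genotype in the same 2 libraries, heterozygous 5 with 10.3 CPM, where heterozygous 1 to 4 ran from 56.3 to 965 CPM, and deficient 5 with 156 CPM, where deficient 1 to 4 ran from 415 to 882 CPM. Csf1r, Cd68 and C1qc were each lowest within their genotype in those 2 libraries. Lyz2, the macrophage marker with the highest level, was not: it was lowest in deficient 5 but highest of all libraries in heterozygous 5, at 123 CPM. Summed macrophage level was also highest in heterozygous 5 (186 CPM) and lowest in deficient 5 (68.9 CPM). The part of these differences in the members' values was not tested.

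Further markers of the same types gave the following counts, all by edgeR with 0 genes called. Of 13 further macrophage markers 12 had a negative log2 fold change, with a median of −0.28. C1qb, a partner chain of C1qc, was at 58.5, 47.3, 60.8, 42.8 and 34.6 CPM across heterozygous libraries and 58.6, 53.8, 28.0, 40.0 and 16.7 CPM in deficient libraries (log2 fold change −0.31 ± 0.30, SE), lowest again in deficient 5. In the authors' deposited table C1qb, Adgre1, Spi1 and Laptm5, 4 of these 13, were called lower (against 3.36% of all genes). Of 14 further endothelial markers 11 were positive (median 0.23). Pecam1, an endothelial adhesion molecule also found on germ cells, went the other way, at 25.4 ± 17.6 CPM across heterozygous libraries and 11.4 ± 5.12 CPM in deficient libraries (log2 fold change −1.16 ± 0.43, adjusted p = 0.214). Of 18 further stromal markers 12 were tested and 8 were positive (median 0.17), with Sparc, a matrix glycoprotein, at −0.12 ± 0.41 (0.16 without heterozygous 5). Of 15 further pregranulosa markers 10 were tested and 4 were positive (median −0.08). Znrf3, which removes WNT receptors from the cell surface, was at 18.6 ± 5.73 CPM across heterozygous libraries and 32.8 ± 5.95 CPM in deficient libraries (log2 fold change 0.82 ± 0.23, adjusted p = 0.155), and it was called higher in the authors' deposited table. Of 6 further surface markers 5 were tested and 2 were positive (median −0.29), with Krt7 at 0.38 ± 0.31. Of 10 red cell genes 6 were tested and all 6 were negative (median −0.48), with Hba-a1 at −0.56 ± 0.94 (0.64 without heterozygous 5). Of 4 steroidogenic genes 2 were tested, and Star, which moves cholesterol into mitochondria, was at 4.01 ± 0.904 and 5.06 ± 1.34 CPM. Of 8 germ cell genes 7 were tested and 5 were negative (median −0.23), with Dazl at −0.21 ± 0.23. Of these, 1 gene, Ddx4, was called lower in the authors' deposited table (log2 fold change −0.48, adjusted p = 0.0262).

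Partners of the members' ligands and receptors were listed as 22 genes, of which 20 were tested, 12 with a positive and 8 with a negative log2 fold change (median 0.14), 0 called and 5 with an unadjusted p under 0.05 (against 16.6% of all genes). Bmpr2, the type II receptor for BMP ligands such as BMP2, was at 32.0, 31.6, 24.6, 29.9 and 25.8 CPM across heterozygous libraries and 49.4, 55.9, 39.4, 52.0 and 39.4 CPM in deficient libraries. Every deficient library exceeded every heterozygous one (log2 fold change 0.71 ± 0.18, adjusted p = 0.131), and Bmpr2 was called higher in the authors' deposited table. Bmpr1b, a type I receptor, was at 1.14 ± 0.509 and 0.496 ± 0.140 CPM, with every deficient library below every heterozygous one (log2 fold change −1.19 ± 0.40, adjusted p = 0.187). These were 2 of 20 partners without overlap between genotypes, against 3.53% of all genes. Lgr4, an R-spondin receptor related to Lgr5, was at 19.1 ± 7.13 and 33.4 ± 7.16 CPM (log2 fold change 0.81 ± 0.27, adjusted p = 0.189), and Fzd3, a WNT receptor and the partner with the highest mean by the naming rule, was at 75.0 ± 22.7 and 92.9 ± 13.0 CPM. Kit, the receptor for Kitl, was at 22.4, 16.3, 10.2, 43.6 and 89.2 CPM across heterozygous libraries and 26.2, 11.6, 34.1, 20.7 and 9.28 CPM in deficient libraries (log2 fold change −0.83 ± 0.53, adjusted p = 0.438). Bmpr2, Bmpr1b, Lgr4 and Kit were chosen after their values were seen.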

How the data were processed

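RNA sequencing of 10 libraries of sorted oocytes was analysed. The authors deposited whole-number counts per gene, titled as featureCounts output, and TPM per gene, titled as StringTie output. The submitters' processing notes name the build GRCm38 and the tools Trim Galore 0.5.0, HISAT2 2.1.0, featureCounts of Subread 1.6.2 and StringTie 1.3.3b, with no settings. The authors' deposited DESeq2 comparison lists, by the names in its header, the mean normalized signal of a gene, its log2 fold change, the Wald score and p-values before and after adjustment. Taf4b shows that a positive fold change means higher in deficient libraries. The sources used here do not state strand and multi-mapping settings. Of the members, 10 share exon bases with another gene, most of which had few counts. Of the 55536 genes, 382 have no symbol.

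The quasi-likelihood test of edgeR 4.0.16 (R 4.3.3) was run on the counts with genotype as the only term, TMM (trimmed mean of M-values) scaling, edgeR's filter on low counts and Benjamini-Hochberg adjustment over all 19244 genes tested, called under 0.05. CPM used TMM-scaled library sizes. Sums over a type take every member and have no test. TPM was also computed from counts with exon lengths of GENCODE M21, in which all 37 members have the coordinates of the files. The length of a gene was that of all its annotated exons merged, which can exceed its longest transcript. The 3-level grouping was found by comparing 9811 groupings of the libraries with the deposited fold changes. The edgeR procedure was also run on simulated counts drawn independently, with no grouping of libraries. That run therefore does not cover the grouping on which the calls depended. Alternatives were other scalings and filters, DESeq2 1.42.0, limma 3.58.1 with voom and quality weights on the libraries or on the log2 of TPM with 1 or 0.1 added, a model term for litter date, replicate number or the authors' grouping, and leaving out each library, date or level. Alternatives with the authors' grouping and the TPM from counts were chosen after seeing the data.

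The members and lists were chosen with earlier results of these data known. Values per library are given for the 3 members of each type with the smallest unadjusted p and the 3 with the highest deposited TPM, and for Rspo1, Kitl and Gata4, chosen after their values were seen. The other members are given by range, and fold changes under the alternatives were computed for the members and genes the rule names. From each other list the gene with the highest mean is named, since edgeR called none, and genes called in the authors' deposited table were added after their values were seen.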

Additional observations from a re-analysis of the deposited data

Results flagged for a closer look

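Over 52 groups of 5 libraries tested for 1 value far from the rest, 2 stood out, and chance alone flags about 1 in 20 groups. Lgr5 was at 2.33 CPM in heterozygous 3, below the other heterozygous libraries, which lay between 3.25 and 3.62 CPM. Plvap was at 13.8 CPM in the same library, above the other heterozygous libraries, which lay between 9.18 and 10.4 CPM. Heterozygous 3 has the greatest depth of the 10 libraries, 26983565 counts, and gave the lowest value of 12 members. No cause was tested for either value.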

How the results depend on the processing

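The count of members called by edgeR was 0 under every alternative run except without heterozygous 1, where it was 1 (Fst), so the range over single libraries left out was 0 to 1. Over all genes the count of 0 moved to 251 with a filter of at least 1 count in total, 643 by DESeq2, 510 by limma voom with quality weights, 104 with the authors' grouping in the model and 0 to 606 with single libraries left out, 606 without heterozygous 1. Replicate numbers did not pair the libraries, since same-numbered libraries deviated from their group means with correlations of 0.20, 0.07, 0.16, −0.34 and 0.66 and only number 5 correlated best with its own. With the replicate block in the model, 1 gene and 0 members were called. DESeq2 with the authors' grouping called 7 members and 1172 of all genes. With single libraries left out it called 1 to 9 members and 169 to 1699 of all genes.

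Of the 29 genes chosen by the naming rule, for which every alternative was run, 8 changed sign in log2 fold change under at least 1. Voom below means voom with quality weights. Runx1 (−0.02) was 0.0888 with the authors' grouping, 0.0523 once the third litter date was removed and 0.0878 without level 3, with −0.13 to 0.0748 for single libraries left out. Col3a1 (0.54) was −0.59 by voom and −0.19 without level 2, with −0.16 to 0.95 for single libraries. Plvap (0.12) was −0.00320 and −0.00892 on log2(TPM + 1) and log2(TPM + 0.1), −0.0734 without the first litter date and −0.0233 and −0.00980 without levels 1 and 3, with −0.0163 to 0.23 for single libraries. Cdh5 (0.75) was −0.33 without the first litter date, with 0.22 to 1.6 for single libraries. Lyz2 (−0.14) was 0.0221 by voom, 0.20 without the third litter date and 0.40 without level 3, with −0.29 to 0.14 for single libraries. Krt18 (0.18) was −0.13 without the third litter date and −0.21 without level 2. Sparc (−0.12) was 0.20 with the authors' grouping, 0.14 without the second litter date and 0.29 without level 3, with −0.45 to 0.16 for single libraries. Hba-a1 (−0.56) was 0.25 with the authors' grouping and 0.12 without level 3, with −2.06 to 0.64 for single libraries. Of the other members, Nr5a1 (−0.07) and Nr2f1 (−0.04) were 0.24 and 0.11 with the authors' grouping, the only alternative read for them. The cause was not tested. No scaling changed the sign of these 29, while DESeq2 and the filter of at least 1 count each moved the median of all genes by more than 0.1 on the log2 scale, to 0.12. Summed levels moved by less than 1 SD. With single libraries left out, the ratio for pregranulosa, surface and epithelial and all members changed sign for some. The stromal ratio then ran from 0.0765 to 0.70, the endothelial from 0.0213 to 0.34 and the macrophage from −0.43 to −0.17. With dates and levels left out as well, the macrophage ratio stayed below 0, from −0.59 to −0.12. The ratios of the other sums with dates or levels left out are not given here. Both endothelial members were negative without the first litter date. Depth limits Pdgfra, Pdgfrb, Tcf21 and Lum most, with at most 42 counts in a library.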
